A study of Oryza sativa with 12 samples.

Results

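Aquaporins of the tonoplast intrinsic protein (TIP) subfamily were followed in rice (Oryza sativa) shoot and root. The 5 loci, taken by identifier, were TIP1;1 (Os03g0146100), TIP1;2 (Os01g0975900), TIP2;1 (Os02g0658100), TIP2;2 (Os06g0336200) and TIP4;1 (Os05g0231700). They are written TIP1-1, TIP1-2, TIP2-1, TIP2-2 and TIP4-1 below, as RefSeq lists them among its synonyms. All 5 were found among the 38034 rows of the files. The files do not pair identifiers with names. RefSeq held each of the 5 names once, and for all 5 its chromosome was that written in the identifier, which was chromosome 3 for TIP1-1, 1 for TIP1-2, 2 for TIP2-1, 6 for TIP2-2 and 5 for TIP4-1. Recovered row lengths were 1081 bases for TIP1-1, 1394 for TIP1-2, 873 for TIP2-1, 1214 for TIP2-2 and 1251 for TIP4-1.

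The groups were shoot of the mutant line osspt5-1#12, shoot of the wild-type cultivar Nipponbare (WT), root of osspt5-1#12 and root of WT, with 3 libraries each and 12 in all. The labels give no further treatment, and all plants grew in one chamber regime of 15 h light at 28 °C and 9 h dark at 24 °C. The series concerns depletion of OsSPT5-1, a transcription elongation factor of the SPT5 kind, during vegetative growth. One mutant line was sampled, OsSPT5-1 itself was not measured for this account, and the labels number replicates without saying whether they came from separate plants. The p-values therefore rest on the spread among the sequenced libraries, part of which can be technical.

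Aquaporins are membrane channels that let water, and in some members small neutral solutes, cross a membrane passively. TIP proteins sit mainly in the tonoplast, the membrane around the central vacuole, and are known for letting water pass between cytosol and vacuole as cells adjust turgor and enlarge. In Arabidopsis, TIP1 proteins also conduct hydrogen peroxide and urea, TIP2 proteins conduct ammonia, and TIP4;1 conducts urea. The transport roles of the rice proteins are not assumed to be the same.

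Levels are FPKM (fragments per kilobase of row length, scaled to library depth), which allows levels of different genes to be compared. Recovered depth ran from 10118071 to 15749857 reads per library. The labelled organs were checked on loci taken from general knowledge. All 5 leaf photosynthesis loci were higher in every shoot library than in every root library, and all 3 root loci were higher in every root library than in every shoot library. Leaf photosynthesis loci still summed to 107 to 292 FPKM in root libraries, against 1336 to 2133 FPKM in shoot libraries. Libraries of osspt5-1#12 root matched each other least, with Pearson's r across rows of 0.877 to 0.920, followed by WT shoot with 0.908 to 0.951. Both other groups lay between 0.961 and 0.971. Summed root loci reached 266, 228 and 902 FPKM in osspt5-1#12 root libraries 1, 2 and 3, against 874, 949 and 687 FPKM in WT root. The osspt5-1#12 root libraries thus differed among themselves in root marker level, and the part of this in the root results below was not tested. In whole organs, fewer cells of a type and less RNA per cell cannot be told apart.

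In shoot, the leading tonoplast aquaporin was TIP2-2 in osspt5-1#12 and TIP4-1 in WT. TIP2-2 was 4.87-fold higher in osspt5-1#12 shoot than in WT shoot, TIP4-1 was 2.93-fold lower and TIP1-2 was 5.33-fold lower, as ratios of mean FPKM. TIP1-1 and TIP2-1 did not pass the test there. In root, TIP4-1 alone among the 5 passed, 4.10-fold lower in osspt5-1#12. The test was limma on log2(FPKM + 1) over 25337 rows, with Benjamini-Hochberg adjustment and a threshold of 0.05. It called 3 of the 5 TIP loci in shoot and 1 of 5 in root, where it called 9.5% and 7% of all rows. Of the 3 shoot calls 1 was higher in osspt5-1#12 and 2 were lower, beside 4.8% and 4.69% of all rows (3.12% and 6.2% with median-ratio scaling of the libraries). The root call was lower, beside 4.37% of all rows. Library ranges of the genotypes did not overlap for 3 of the 5 loci in shoot and 2 of 5 in root, beside 38.8% and 23.9% of all rows. The called share of all rows depended on single libraries. In shoot it ran from 4.28% without WT shoot library 3 to 14.4% without osspt5-1#12 root library 3, and in root from 2.43% without WT root library 3 to 18.2% without osspt5-1#12 root library 1. With only the groups compared it was 16.4% in shoot and 1.89% in root. Each of the 4 TIP calls was kept in all 18 alternative settings. Those that left out a library of the other organ could not move the fold change, only its spread and adjustment.

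**Figure D1:**
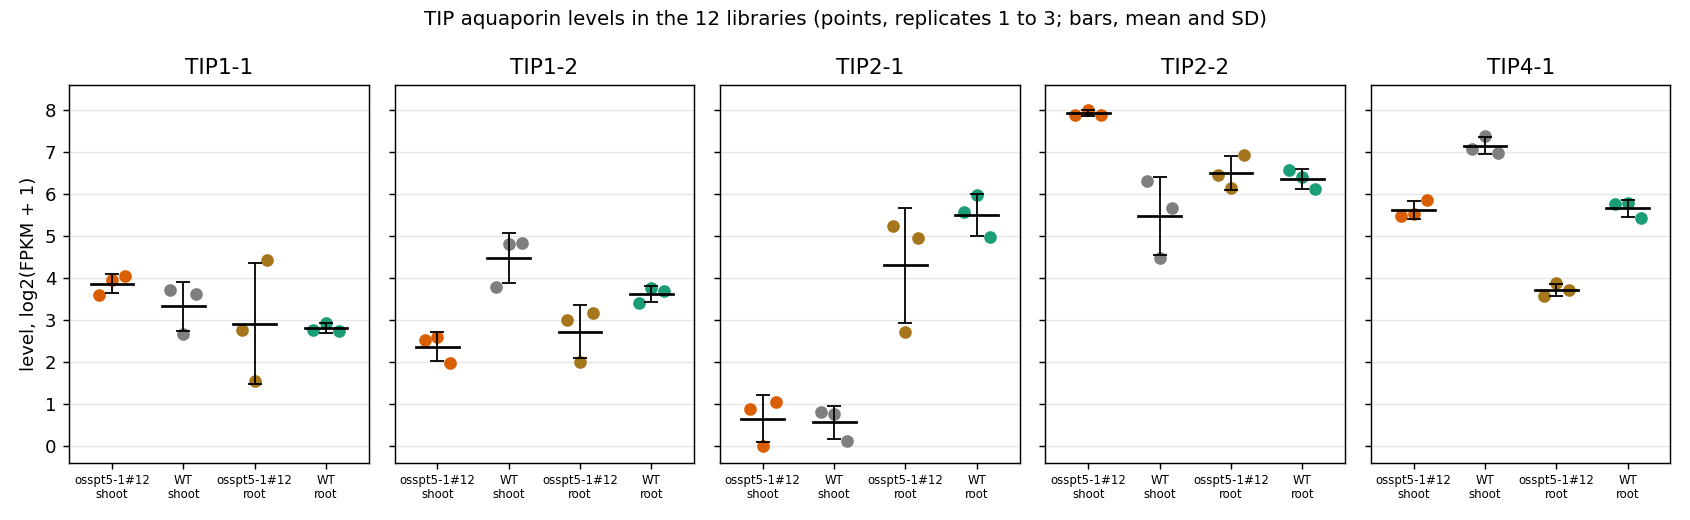
Level of each TIP locus on the log2(FPKM + 1) scale (vertical axis) in every library, by group (horizontal axis). Points are replicates 1 to 3 from left to right, and bars give the mean and SD of the 3 libraries. For TIP2-2 the osspt5-1#12 shoot points (236 to 255 FPKM) lie above those of WT shoot (21.3 to 78.3 FPKM), and for TIP4-1 the osspt5-1#12 points lie below WT in both organs.

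TIP2-2, a member of the TIP2 group, had the largest rise. It stood at 236, 255 and 236 FPKM in osspt5-1#12 shoot, against 78.3, 21.3 and 49.7 FPKM in WT shoot. The groups did not overlap, and the osspt5-1#12 libraries were much closer to each other than the WT libraries. Means were 242 ± 11.1 FPKM in osspt5-1#12 shoot and 49.7 ± 28.5 FPKM in WT shoot (SD, n = 3 each). The fitted change was 2.44 on the log2 scale (limma SE 0.380, adjusted p = 0.00249). Without WT shoot library 2, the lowest of its group, it was 1.94 and stayed past the threshold. Among 31003 locus rows TIP2-2 ranked 306 to 316 in osspt5-1#12 shoot libraries, against 1523 to 5970 in WT shoot libraries.

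In root, TIP2-2 had 86.4, 69.4 and 122 FPKM in osspt5-1#12, against 93.8, 83.2 and 68.3 FPKM in WT. These groups overlapped, with a log2 fold change of 0.15 (95% interval −0.69 to 0.99, limma adjusted p = 0.863). This interval uses a spread shared by all 12 libraries and leaves room for a change of almost 2-fold upward. With the root libraries alone it was −0.47 to 0.77. The mutant effect on TIP2-2 differed between the organs, by −2.29 on the log2 scale in root relative to shoot (limma interaction SE 0.538, adjusted p = 0.0437), while 3.52% of all rows were called for such a difference. That call was narrow. It held in 5 of 17 alternative settings, with adjusted p between 0.0145 and 0.128.

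TIP4-1, a member of a small TIP group with no close partner among the 5 loci, was lower in osspt5-1#12 in both organs. Its level was 43.7, 44.7 and 57.0 FPKM in osspt5-1#12 shoot, against 135, 166 and 126 FPKM in WT shoot. All osspt5-1#12 shoot libraries lay below all WT shoot libraries. The shoot means were 48.5 ± 7.40 FPKM in osspt5-1#12 and 142 ± 21.1 FPKM in WT (SD, n = 3 each), a fitted change of −1.53 on the log2 scale (limma SE 0.171, adjusted p = 0.000294). It ranked 2347 to 3329 among locus rows in osspt5-1#12 shoot libraries, against 523 to 821 in WT shoot libraries.

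In root, TIP4-1 had 10.8, 13.6 and 12.0 FPKM in osspt5-1#12, against 53.7, 54.0 and 42.0 FPKM in WT. The groups again did not overlap, and TIP4-1 was the steadiest of the 5 loci across the otherwise uneven osspt5-1#12 root libraries. Root means were 12.2 ± 1.40 FPKM in osspt5-1#12 and 49.9 ± 6.83 FPKM in WT (SD, n = 3 each), a fitted change of −1.95 on the log2 scale (limma SE 0.171, adjusted p = 0.000155). Summed root loci were 266, 228 and 902 FPKM in osspt5-1#12 root libraries 1, 2 and 3, where TIP4-1 had 10.8, 13.6 and 12.0 FPKM. The part of root marker level in the fall of TIP4-1 was not tested. TIP4-1 ranked 8998 to 9545 among locus rows in osspt5-1#12 root, against 2595 to 3410 in WT root. The fall in root and the fall in shoot were not shown to differ. Their difference was −0.41 on the log2 scale (95% interval −0.95 to 0.12, limma interaction adjusted p = 0.432).

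TIP1-2 belongs to the TIP1 group, known in Arabidopsis for a member expressed in elongating cells. It had 4.70, 5.06 and 2.91 FPKM in osspt5-1#12 shoot, against 12.8, 27.3 and 27.5 FPKM in WT shoot. These values rest on 43 to 111 reads per library in osspt5-1#12 shoot and on 269 to 577 in WT shoot. No library of osspt5-1#12 shoot reached the lowest WT shoot library. Means were 4.22 ± 1.15 FPKM in osspt5-1#12 shoot and 22.5 ± 8.45 FPKM in WT shoot (SD, n = 3 each), and the fitted change was −2.12 on the log2 scale (limma SE 0.363, adjusted p = 0.00433).

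In root, TIP1-2 had 7.02, 2.98 and 7.99 FPKM in osspt5-1#12, against 9.50, 12.5 and 11.9 FPKM in WT. The groups did not overlap, but the log2 fold change of −0.89 did not pass the test (95% interval −1.69 to −0.091 unadjusted, limma adjusted p = 0.163). The difference between the organ effects was 1.23 on the log2 scale and did not pass either (limma interaction adjusted p = 0.250).

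TIP1-1, the other TIP1 locus, passed in neither organ. It had 11.1, 14.6 and 15.4 FPKM in osspt5-1#12 shoot, against 12.1, 5.33 and 11.2 FPKM in WT shoot, and these groups overlapped. The log2 fold change in shoot was 0.54 (95% interval −0.72 to 1.80, limma adjusted p = 0.604). In root it had 5.78, 1.92 and 20.6 FPKM in osspt5-1#12, against 5.76, 6.63 and 5.65 FPKM in WT. The osspt5-1#12 root libraries lay on both sides of the narrow WT range, with the lowest resting on 28 reads. The root log2 fold change was 0.10 (95% interval −1.16 to 1.37, limma adjusted p = 0.947), and −0.65 without osspt5-1#12 root library 3.

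TIP2-1, described in rice as an aquaporin mainly of roots, was nearly absent from shoot in both genotypes. It had 0.844, 0 and 1.08 FPKM in osspt5-1#12 shoot, against 0.757, 0.690 and 0.0761 FPKM in WT shoot. These levels rest on 19 reads over the 3 osspt5-1#12 libraries and 20 over the 3 WT libraries. A fall or a small change in shoot was therefore not detectable at this depth. The log2 fold change in shoot was 0.088 (95% interval −1.20 to 1.38, limma adjusted p = 0.954). In root TIP2-1 reached 36.5, 5.60 and 29.7 FPKM in osspt5-1#12, against 46.2, 61.5 and 30.4 FPKM in WT. The groups overlapped, since the lowest WT library stood below the highest of osspt5-1#12. Means were 23.9 ± 16.2 FPKM in osspt5-1#12 root and 46.0 ± 15.5 FPKM in WT root (SD, n = 3 each), with a log2 fold change of −1.20 (95% interval −2.49 to 0.090, limma adjusted p = 0.237). Without osspt5-1#12 root library 2 it was −0.41.

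**Figure D2:**
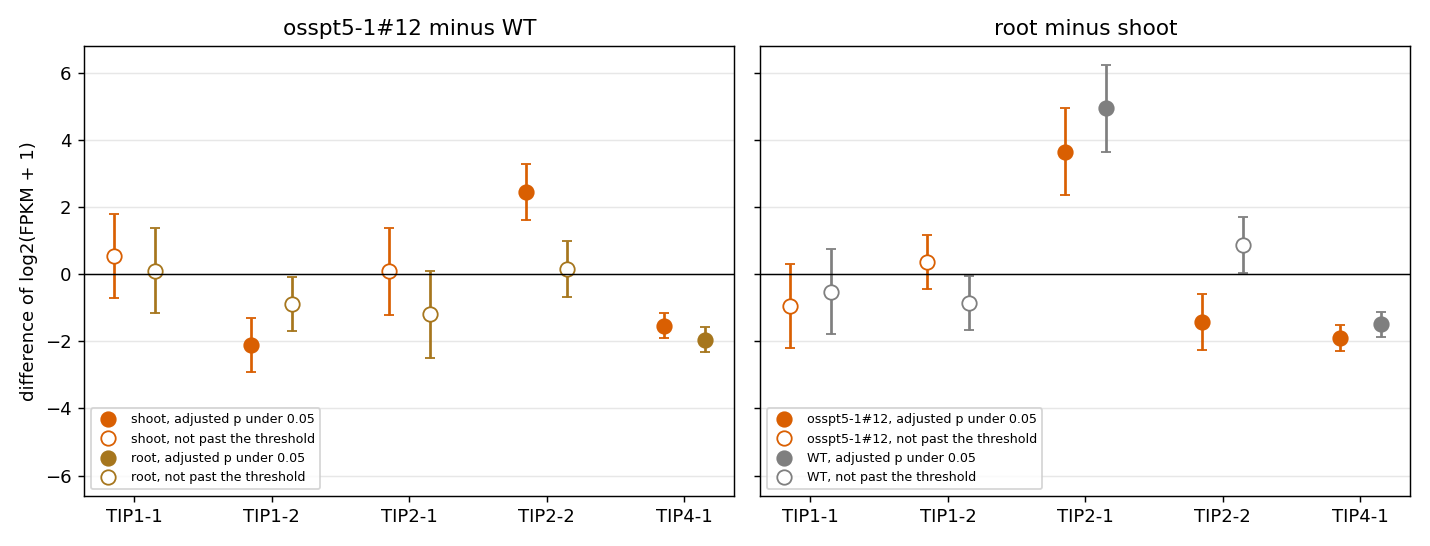
Differences of log2(FPKM + 1) for the 5 TIP loci with 95% intervals of the limma fit, for osspt5-1#12 minus WT (left panel) and root minus shoot (right panel). Filled points passed an adjusted p of 0.05. In the left panel TIP4-1 is filled in both organs, at −1.53 and −1.95, and in the right panel TIP2-1 and TIP4-1 are filled in both genotypes.

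Between organs, TIP2-1 was called higher in root and TIP4-1 lower in root in both genotypes, and TIP2-2 was called lower in root in osspt5-1#12. TIP2-1 passed the filter only through its root libraries, where it was high, so its organ call adds no support beyond its levels. TIP2-1 averaged 23.9 FPKM in osspt5-1#12 root and 0.641 FPKM in osspt5-1#12 shoot, and 46.0 FPKM in WT root and 0.508 FPKM in WT shoot. These are ratios of 37.3 in osspt5-1#12 and 90.7 in WT. The fitted log2 differences were 3.65 in osspt5-1#12 and 4.94 in WT (limma adjusted p = 0.000865 and 7.70e-05), which understate the ratios because shoot levels lay near or under the pseudocount of 1. With a pseudocount of 0.1 they were 5.26 in osspt5-1#12 and 6.49 in WT. The value in osspt5-1#12 was 4.44 without root library 2.

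TIP4-1 was lower in root than in shoot, 3.99-fold in osspt5-1#12 and 2.85-fold in WT as ratios of mean FPKM (limma adjusted p = 1.99e-05 and 6.03e-05). TIP2-2 was lower in root than in shoot in osspt5-1#12, with a log2 difference of −1.42 (limma SE 0.380, adjusted p = 0.0163). That call was lost without osspt5-1#12 shoot library 2 (adjusted p = 0.0518) or without osspt5-1#12 root library 2 (adjusted p = 0.0565). In WT its root minus shoot difference was 0.88 and did not pass (limma adjusted p = 0.101). Neither TIP1 locus passed between organs in either genotype. In all, 3 of the 5 loci were called between organs in osspt5-1#12 and 2 of 5 in WT, beside 30.6% and 34.3% of all rows. Both counts include TIP2-1, which passed the filter only through root. These organ comparisons use the same libraries as those of osspt5-1#12 with WT and are not independent of them.

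The order of levels by mean FPKM differed between groups. In osspt5-1#12 shoot it was TIP2-2, TIP4-1, TIP1-1, TIP1-2 and TIP2-1 from high to low, and no neighbours overlapped. In WT shoot it was TIP4-1, TIP2-2, TIP1-2, TIP1-1 and TIP2-1, where TIP2-2 and TIP1-2 overlapped. In osspt5-1#12 root TIP2-2 led, at 92.5 FPKM, followed by TIP2-1, TIP4-1, TIP1-1 and TIP1-2. Each pair of neighbours among these 4 overlapped, whereas TIP4-1 (10.8 to 13.6 FPKM) lay wholly above TIP1-2 (2.98 to 7.99 FPKM). TIP1-1 stood above TIP1-2 in only 1 of the 3 osspt5-1#12 root libraries, library 3. In WT root TIP2-2 led at 81.8 FPKM, followed by TIP4-1 and TIP2-1, which overlapped, and then TIP1-2 and TIP1-1.

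Summed over the 5 loci, the level was 296, 320 and 312 FPKM in osspt5-1#12 shoot, against 239, 221 and 214 FPKM in WT shoot. As FPKM, the sum was thus higher in all osspt5-1#12 shoot libraries, although 2 of the 5 loci had fallen. TIP2-2 made up most of it there. FPKM of all rows came to 829537, 671843 and 909321 in osspt5-1#12 shoot libraries, against 692950, 707005 and 689444 in WT shoot. Median-ratio size factors were 1.04, 1.00 and 1.07 in osspt5-1#12 shoot, against 0.980, 0.829 and 0.928 in WT shoot. Whether the gap in the sum holds under another scaling was not tested. TIP2-2 took 75.5% to 79.9% of the sum in osspt5-1#12 shoot and 9.65% to 32.8% in WT shoot. TIP4-1 took 14.0% to 18.2% in osspt5-1#12 shoot and 56.5% to 75.3% in WT shoot.

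In root the sum was 147, 93.5 and 192 FPKM in osspt5-1#12, against 209, 218 and 158 FPKM in WT, and these groups overlapped. TIP2-2 took 59.0% to 74.2% of it in osspt5-1#12 root and 38.2% to 44.9% in WT root. TIP4-1 took 6.28% to 14.6% in osspt5-1#12 root and 24.8% to 26.6% in WT root. TIP2-1 added 5.99% to 24.9% in osspt5-1#12 root and 19.2% to 28.2% in WT root, but at most 0.345% in any shoot library.

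**Figure D3:**
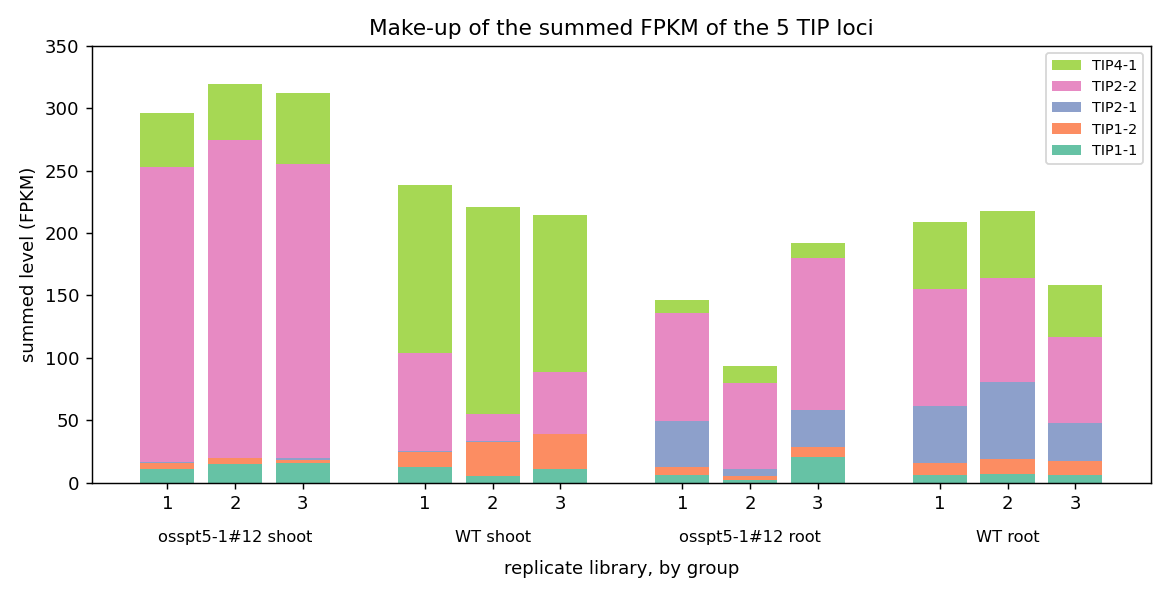
Stacked FPKM of the 5 TIP loci (vertical axis) in each of the 12 libraries, by group and replicate (horizontal axis). TIP2-2 fills most of each osspt5-1#12 shoot bar, TIP4-1 fills most of each WT shoot bar, and TIP2-1 is visible in root bars.

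The quotient of TIP2-2 to TIP4-1 is free of library scaling, and was chosen after the values were seen. It was 5.40, 5.71 and 4.14 in osspt5-1#12 shoot, against 0.581, 0.128 and 0.395 in WT shoot. In root it was 7.98, 5.09 and 10.1 in osspt5-1#12, against 1.75, 1.54 and 1.62 in WT. Every osspt5-1#12 library stood above every WT library of the same or the other organ. In shoot both genes passed the test, and in root TIP4-1 alone did.

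**Figure D4:**
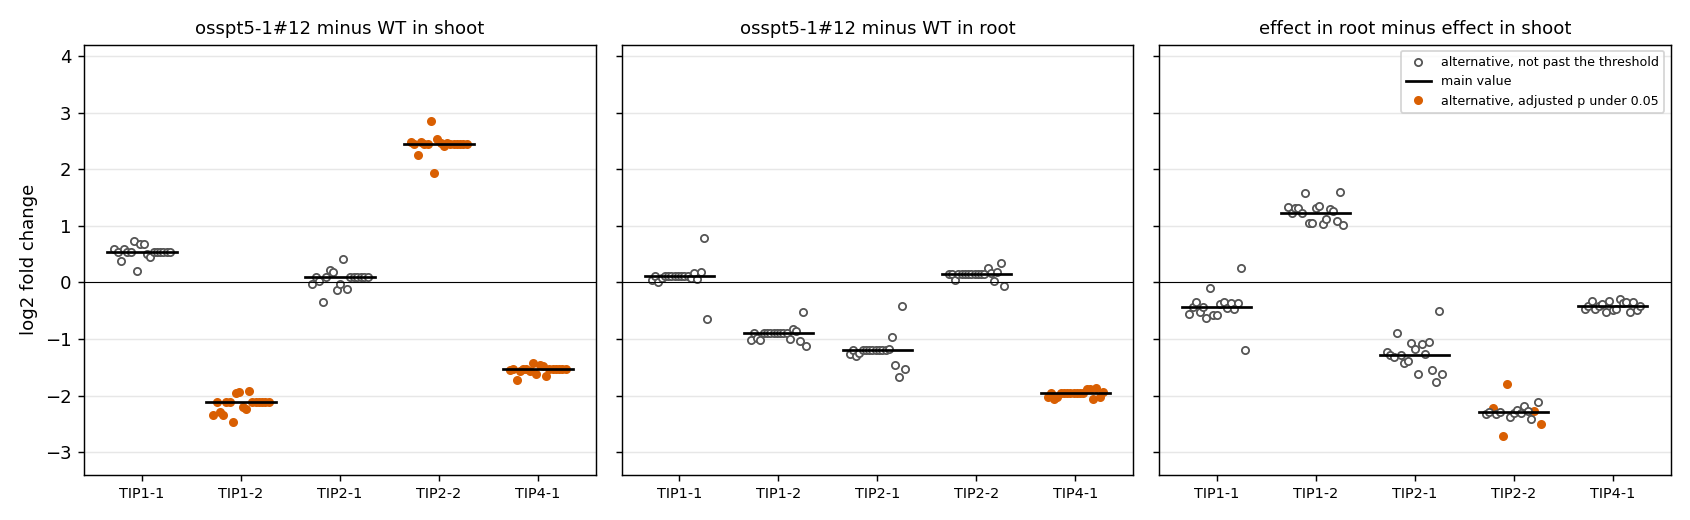
Log2 fold change of each TIP locus (vertical axis) under the alternative settings, for osspt5-1#12 minus WT in shoot (left), in root (middle) and for root minus shoot of that effect (right). Short lines give the reported value, filled points are alternatives with adjusted p under 0.05 and open points are the others. TIP1-2, TIP2-2 and TIP4-1 in shoot and TIP4-1 in root are filled throughout, and TIP2-2 in the right panel is filled in 5 of 17.

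Other aquaporin loci, listed from general knowledge and not annotated by the files, gave a setting for these values. Of 5 further loci listed as TIP, 4 were in the files and none passed the filter of 1 FPKM in 3 libraries. Their highest value in any library was 1.19 FPKM. The 5 loci described here therefore held nearly all of the TIP signal on that list. Of 10 loci of the plasma membrane group (PIP) that were tested, 1 rose, 2 fell and 7 did not pass in osspt5-1#12 shoot, with a median log2 fold change of −0.19 against 0.13 for all rows. In osspt5-1#12 root limma called 0 of these 10, with 2 at an unadjusted p under 0.05 and 0 called by limma-voom, and their median was 0.46 against 0.064 for all rows. Of 7 tested loci of the NIP and SIP groups, 2 fell and 5 did not pass in osspt5-1#12 shoot, with a median of −0.14. In osspt5-1#12 root 2 of these 7 fell and 5 did not pass, with a median of −1.34 and 6 at an unadjusted p under 0.05. Over all rows tested, limma called 4.8% higher and 4.69% lower in shoot, and 2.63% higher and 4.37% lower in root. In root 24.3% of all rows had an unadjusted limma p under 0.05. The 11 PIP loci, aquaporins of the plasma membrane, summed to 876 ± 99.9 FPKM in osspt5-1#12 shoot and 911 ± 281 FPKM in WT shoot (SD, n = 3 each). In root they summed to 932 ± 538 FPKM in osspt5-1#12 and 952 ± 163 FPKM in WT. The 10 NIP and SIP loci summed to 88.4 to 118 FPKM in osspt5-1#12 shoot, against 130 to 212 FPKM in WT shoot. In root they summed to 126 to 302 FPKM in osspt5-1#12, against 522 to 630 FPKM in WT. For this list the genotypes did not overlap in either organ, beside 38.8% of all single rows in shoot and 23.9% in root. It holds 1 of the 3 root loci used to check the organs. That locus alone reached 484 FPKM in WT root, the highest single value of the list there.

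Among themselves the TIP loci did not move as 1 group. After subtracting each organ's mean, Pearson's r of log2(FPKM + 1) over the 12 libraries was 0.748 between TIP1-2 and TIP4-1 and −0.805 between TIP1-2 and TIP2-2. It was −0.617 between TIP2-2 and TIP4-1. Within shoot these were 0.900, −0.948 and −0.946, and within root 0.695, 0.191 and −0.246. These pairs join the loci called in shoot, so their signs there largely follow from the calls. After the same subtraction, TIP1-1 had r of 0.543 with TIP2-2, 0.434 with TIP2-1, −0.093 with TIP1-2 and −0.261 with TIP4-1. TIP2-1 had 0.399 with TIP4-1, 0.293 with TIP1-2 and 0.096 with TIP2-2. Within shoot and root, TIP1-1 with TIP2-2 gave 0.839 and 0.859, and TIP1-2 with TIP2-1 gave −0.304 and 0.908. TIP1-1 with TIP4-1 gave −0.660 and −0.097. Values within an organ rest on 3 libraries per genotype. Among root libraries, osspt5-1#12 library 2 was lowest for TIP1-2 (2.98 FPKM) and TIP2-1 (5.60 FPKM). Library 3 of that group was highest for TIP1-1 (20.6 FPKM) and TIP2-2 (122 FPKM). The part of these libraries in the root r was not tested. Libraries of a group share genotype, so the r values above in part restate the group differences. Scatter among the libraries of a group enters them too. By the same measure over 20702 other locus rows, the row most like TIP2-2 was Os02g0732200 (r = 0.981), that most like TIP4-1 was Os02g0564700 (r = 0.979) and that most like TIP1-2 was Os02g0273700 (r = 0.982). Each is the highest r among 20702 rows, and the measure leaves out level and the difference between organs. Os02g0732200 averaged 5.20 FPKM in osspt5-1#12 shoot and 1.08 FPKM in WT shoot, far below TIP2-2. Os02g0564700 averaged 0.154 FPKM in osspt5-1#12 shoot and 0.984 FPKM in WT shoot, and 4.28 FPKM in osspt5-1#12 root and 11.1 FPKM in WT root. It was thus low in shoot, where TIP4-1 was high. Its mean in osspt5-1#12 shoot lay under the 0.190 FPKM that 3 reads of a 1 kb row give at the highest depth.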

How the data were processed

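The 12 libraries were prepared with a NEBNext Ultra kit from 2 µg total RNA, per the labels' protocols. Each deposited file holds FPKM for 1 library, per the file headers. Tools listed in the submitters' processing notes are Bowtie2 2.2.3, HISAT2 2.1.0 and HTSeq 0.6.0, on build IRGSP-1.0, without a role for any of them. The annotation release and the authors' treatment of reads shared by similar genes were not given in the sources used here. This kit does not mark strand, so antisense reads cannot be told apart, and reads shared between related aquaporins make single values uncertain.

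Rows missing from a file were set to 0. Whole reads were recovered from the FPKM steps (100% of rows within 0.002 reads), and the smallest fitting number was taken. Limma 3.58.1 in R 4.3.3 (trend, Benjamini-Hochberg) was run on log2(FPKM + 1), on rows with at least 1 FPKM in 3 or more libraries, with 1 mean per group and a spread shared by all 12 libraries. All 5 TIP loci passed that filter, TIP2-1 through root. Fold changes on this scale understate low rows. The procedure was run on simulated data in which all rows had the same relative spread and no group was more uneven than another. Those data do not speak to the uneven libraries here. At these depths 3 reads of a 1 kb row are 0.190 to 0.296 FPKM.

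The loci and lists were chosen with earlier results of these data known. All 5 TIP loci are named. The row most like a locus was that with the highest Pearson's r among locus rows averaging at least 1 FPKM, and was named for the 3 loci called in shoot. Alternatives were a pseudocount of 0.1, no filter, median-ratio scaling, limma-voom on recovered reads, only the groups compared, a replicate block and leaving out each library. No sequence or coordinates are given. RefSeq names come from assembly ASM3414082v1.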

Additional observations from a re-analysis of the deposited data

Results flagged for a closer look

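The mutant effect on TIP2-2 differed between the organs by the interaction test. It was 2.44 on the log2 scale in shoot and 0.15 in root, a difference of −2.29 (SE 0.538, limma adjusted p = 0.0437). TIP2-2 stood higher in all 3 osspt5-1#12 shoot libraries than in any WT shoot library, while root libraries of both genotypes overlapped. The adjusted p ran from 0.0145 to 0.128 over 17 alternatives. Outlying libraries were not looked for, since each group held 3.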

How the results depend on the processing

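Counts of TIP loci called in shoot (3) and root (1) and between organs in osspt5-1#12 (3) stayed within 1.5 times under every alternative. Between WT organs the count was 2, and 2 to 4 with 1 library left out (4 without WT shoot library 1, when TIP1-2 and TIP2-2 also passed). For the difference between organ effects the count was 1, and 0 to 1 with 1 library left out. It was 0 under 4 settings, namely a pseudocount of 0.1, no filter, limma-voom and a replicate block. In those settings 2, 2, 1 and 1 loci had an unadjusted limma p under 0.05, beside 15.7%, 14.2%, 15% and 13.6% of all rows. Among values that had not passed, TIP2-1 in shoot turned to −0.033 with the pseudocount at 0.1 and to −0.35 with limma-voom, and ran from −0.14 to 0.41 with 1 library left out. With 1 library left out, TIP1-1 in root ran from −0.65 to 0.79, TIP2-2 in root from −0.065 to 0.33 and the difference between organ effects of TIP1-1 from −1.19 to 0.25. The cause was not tested. TIP1-1 also passed between osspt5-1#12 organs without root library 3 (log2 fold change −1.71, limma adjusted p = 0.00686).

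Median-ratio scaling moved the all-row median in shoot to −0.0086 on the log2 scale, against 0.13 as deposited, and the TIP calls stayed. Same-numbered libraries of both genotypes did not deviate together (r from −0.116 to 0.141 in shoot and −0.274 to −0.111 in root), so the numbers are not shown to pair the libraries, and the block changed no other TIP call. TIP2-1 in shoot could not be tested with shoot libraries alone, since it failed the filter there. Depth limits TIP2-1 in shoot.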
